A study of Sus scrofa with 24 samples.

Results

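The transcripts of CASP1, IL1B, IL18, TNF and MYD88 were followed across 3 regions of the infarcted pig heart and 2 treatment arms. The 5 genes were taken by name: a probe belonged to one of them when the gene name in the array files equalled the symbol or when its accession or gene ID led to it. This gave 9 probes among 43603 on the array, and all 9 passed the filter that left 34362 probes in the tests. One of the 9 also maps to the IL-1 beta paralogue IL1B2. Probes with a single symbol covered 6050 genes in all.

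Domestic pigs had been given an infarct by a closed-chest procedure with reperfusion, and 24 myocardium samples of 9 of them were each hybridised to a 1-colour porcine array. All pigs had been given aspirin and clopidogrel before the infarct and daily afterwards. After 1 month they were randomised to injection into the heart muscle of the secretome of apoptotic mononuclear blood cells, that is, the products these cells release, or of medium as placebo, and tissue was taken 1 month after treatment. The arrays comprise 6 infarct core, 6 border zone and 4 normal region samples of secretome pigs 11 to 16, and 3, 3 and 2 of medium pigs 10, 18 and 40. The labels mark the tissue of pigs 10, 18 and 40 as not treated, and it is taken here as the medium arm. No array covers the normal region of secretome pigs 12 and 13 or of medium pig 40. Since 8 animals per arm are stated in the design text, the arrays represent some of them. The border zone was the zone of injection, and the normal region is the tissue that the protocol calls remote.

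MYD88 is the adaptor protein through which most Toll-like receptors, and the receptors for IL-1 and IL-18, activate NF-kB. Inflammasomes such as the one built on NLRP3 activate caspase-1, the product of CASP1, a protease that cuts the inactive precursors of IL-1 beta and IL-18 into the secreted cytokines. TNF is an early inflammatory cytokine whose transcript is short-lived, and in the infarcted heart all of these are best known from the acute phase, when dying muscle cells release activating molecules. Cleavage and secretion are not seen by an array, which measures transcripts only. In whole tissue, fewer cells of a type and less RNA per cell cannot be told apart.

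Where a gene has several probes, the brightest one with a single symbol is called its main probe. CASP1 has 1 probe, and IL1B, IL18, TNF and MYD88 have 2 each. Of these sequences, 5 are shown because the results turn on whether probes for one gene give the same pattern: the single CASP1 probe, both IL18 probes, which did, and the probes of TNF and IL1B that did not follow their main probe. They are written 5′ to 3′ as the array files give them, and each is 60 bases long.
CASP1: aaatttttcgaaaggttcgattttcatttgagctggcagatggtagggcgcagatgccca
IL18, main probe: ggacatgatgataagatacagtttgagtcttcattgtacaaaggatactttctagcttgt
IL18, other probe: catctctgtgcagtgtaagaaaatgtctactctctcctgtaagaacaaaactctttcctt
TNF, other probe: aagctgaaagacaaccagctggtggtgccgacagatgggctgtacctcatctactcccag
IL1B, probe shared with IL1B2: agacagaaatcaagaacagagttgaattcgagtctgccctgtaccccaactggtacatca

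The array files place the start of the CASP1 probe at base 1102 of its transcript, and those of the IL18 probes at bases 426 and 293. The main TNF probe starts at base 1507 and the other at base 531, and the main IL1B probe at base 1330 and the shared one at base 733. The 2 TNF probes have a G and C content of 35.0% and 55.0%, and have no run of more than 5 bases in common. In the RefSeq table for build Sscrofa11.1, CASP1 lies at chr9:35188066-35199364, IL18 at chr9:39839959-39861258, IL1B at chr3:43670126-43677125, TNF at chr7:23699635-23702393 and MYD88 at chr13:22976951-22979568. All 24 arrays measured CASP1, both probes of IL18 and of MYD88, the main TNF probe and the shared IL1B probe well above background. The main IL1B probe passed that limit on 9 arrays of the infarct core, 7 of the border zone and 5 of the normal region, and the other TNF probe on 7, 2 and 0. Another 2 probes, which map to IL1B2 alone, were well above background on no array.

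Levels are given as scaled intensity: the processed signal of a probe, scaled so that the 75th percentile of every array lies at 371.3 intensity units. Differences are on the log2 scale from limma across all 34362 probes, with the pig as a random block, and a probe is called at an adjusted p under 0.05. The 24 arrays had an unscaled 75th percentile of 210.1 to 617.2 and 61.5% to 75.6% of probes well above background, lowest on the border array of medium pig 40. They were scanned in 2 series, the first with medium pigs 18 and 40 and secretome pigs 12, 13 and 16, the second with medium pig 10 and secretome pigs 11, 14 and 15. These series and the 6 slides that held the arrays were read from the file headers, and the labels name no batch. Slide 1 held only medium arrays and slides 3, 5 and 6 only secretome arrays, while slides 2 and 4 held both arms. Arm and slide can thus not be fully told apart. Levels are compared only within a probe.

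**Figure D1:**
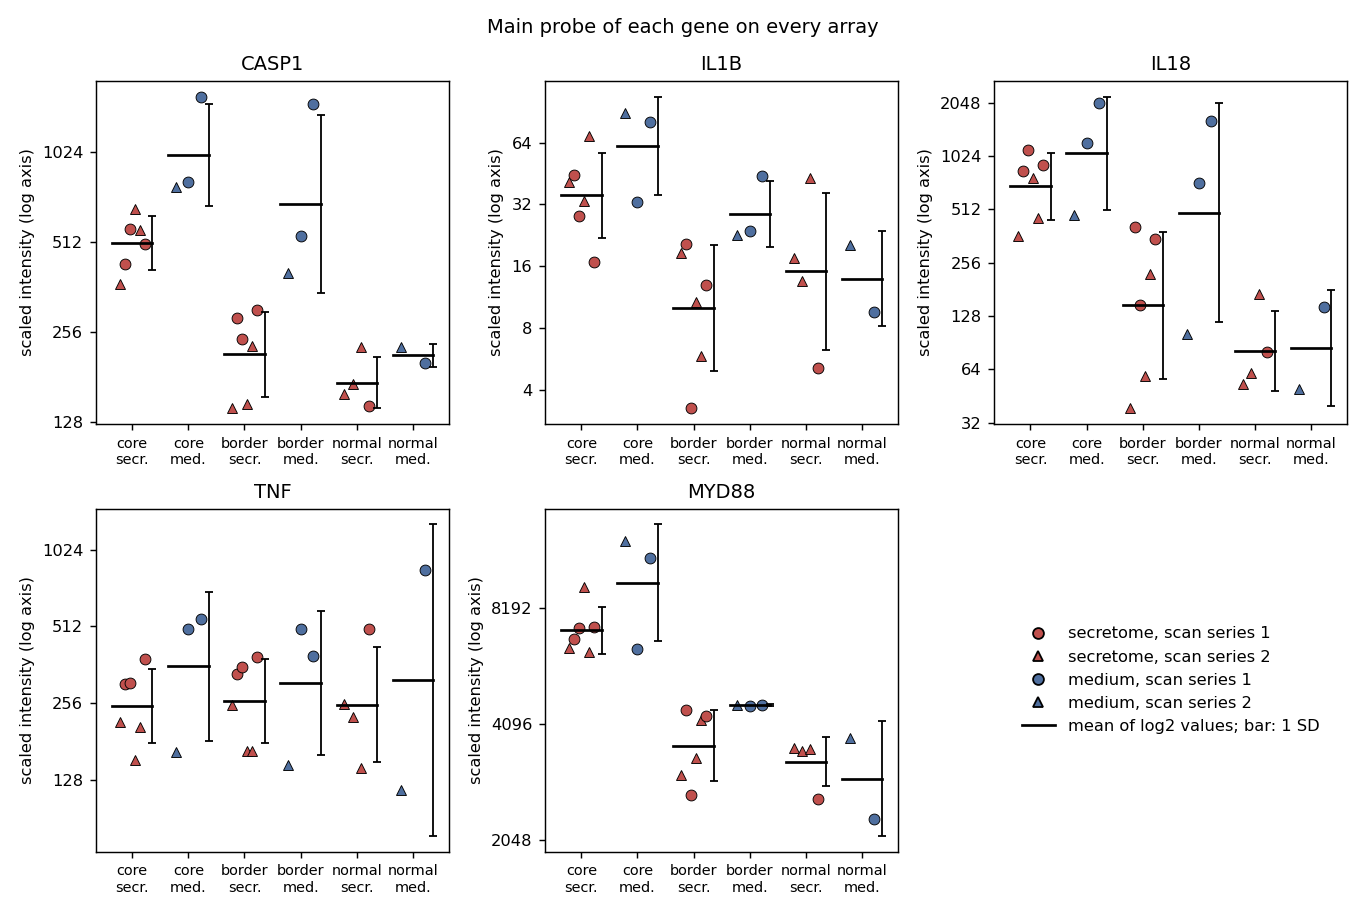
Scaled intensity of the main probe of each gene on every array, on a log axis, with arrays grouped by region and arm. Lines are means of log2 values and bars 1 SD of them, colours mark the arm and symbols the scan series. CASP1, IL1B, IL18 and MYD88 are higher in the infarct core than in the border zone of each of the 9 pigs, while the main TNF probe separates the scan series.

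MYD88 rose in the infarct core, and it did so in each pig and with both probes. Infarct core arrays, 9 in number, ranged over 6279 to 12201 scaled intensity with a median of 7277, and the border zone over 2673 to 4595 with a median of 4297. The 6 normal region arrays ranged over 2319 to 3765 with a median of 3503. All infarct core arrays lay above all arrays of the other two regions, while border zone and normal region overlapped. Over all probes, 7.41% were higher without overlap in infarct core against normal region, and 1.46% in infarct core against border zone. Infarct core minus normal region was 1.40 ± 0.15 (SE; limma, adjusted p = 3.83e-07), a 2.64-fold difference, and infarct core minus border zone was 1.03 ± 0.13 (limma, adjusted p = 7.79e-06). For the other MYD88 probe the values were 1.43 ± 0.18 and 1.06 ± 0.16. Over 24 arrays the 2 probes had a Pearson r of 0.95, as a description of arrays that share pigs and scan series. The order of the 6 group means was medium infarct core, secretome infarct core, medium border zone, secretome border zone, secretome normal region and medium normal region. In that order the gap to the next group exceeded the larger SD only below the secretome infarct core and below the medium border zone.

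CASP1, the protease of the inflammasome, rose in the infarct core as well. The infarct core arrays ranged over 370.4 to 1570 scaled intensity with a median of 566.2, the border zone arrays over 142.7 to 1487 with a median of 285.0, and the normal region arrays over 144.7 to 228.3 with a median of 186.5. Infarct core and normal region did not overlap, and the border zone spanned both. The infarct core was 1.71 ± 0.20 above the normal region (SE; limma, adjusted p = 1.13e-06), 3.27-fold, and 0.89 ± 0.17 above the border zone (limma, adjusted p = 0.000285). Within pigs the step between infarct core and border zone ranged widely, with 2.16 in secretome pig 14 and 0.08 in medium pig 40 as the extremes. Within the first scan series it was 0.59 and not called (limma, adjusted p = 0.0999). Medium pig 40 had the highest CASP1 level in both regions, with 1570 scaled intensity in infarct core tissue and 1487 in border zone tissue. The group means ran from medium infarct core over medium border zone and secretome infarct core to secretome border zone, medium normal region and secretome normal region. The gap below the secretome infarct core, 1.23, and that of 0.31 between the normal regions of both arms, with 4 and 2 arrays, were the ones larger than the SD of the groups beside them.

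IL18, a substrate of caspase-1, showed the largest regional difference of the 5 genes. It ranged over 361.8 to 2049 scaled intensity in the infarct core, over 38.5 to 1610 in the border zone and over 49.6 to 170.3 in the normal region, with medians of 842.3, 222.1 and 71.0. No infarct core array overlapped a normal region array, and the border zone arrays spread over almost the whole range. Infarct core minus normal region was 3.02 ± 0.42 (SE; limma, adjusted p = 6.32e-06), an 8.13-fold difference, and infarct core minus border zone was 1.67 ± 0.36 (limma, adjusted p = 0.000807). The other IL18 probe gave 2.87 ± 0.35 and 1.56 ± 0.30, and the r between both probes was 0.98. No gap between neighbouring group means exceeded the larger SD of the 2 groups. IL18 also differed between the scan series: its main probe was on average 1.89 higher in the first series, a difference larger than that of 94.9% of kept probes. These means are not adjusted for region or arm. Pigs 12, 13 and 40, which lack a normal region array, are all in the first series, so part of the 1.89 can reflect the mix of regions.

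IL1B, the other caspase-1 substrate, gave a result that depended on the probe. On the main probe the infarct core ranged over 16.7 to 89.3 scaled intensity, the border zone over 3.24 to 43.9 and the normal region over 5.08 to 43.3, with medians of 41.1, 18.6 and 15.5. The regions overlapped, but in each pig the infarct core was higher. Infarct core minus normal region was 1.63 ± 0.38 (SE; limma, adjusted p = 0.00126), and infarct core minus border zone was 1.47 ± 0.33 (limma, adjusted p = 0.00115). Both calls were lost with the normexp background correction, which gave 0.21 (limma, adjusted p = 0.63) and 0.56 (limma, adjusted p = 0.11), and within the second scan series the first of them was 1.61 (limma, adjusted p = 0.0532). Within the first series the second was 1.11 (limma, adjusted p = 0.107). The shared probe ranged over 54.2 to 198.1 in the infarct core, 77.1 to 189.9 in the border zone and 108.5 to 180.0 in the normal region. These ranges overlapped, and infarct core minus normal region was -0.18 ± 0.18 (SE; limma, adjusted p = 0.41), with a 95% interval of -0.56 to 0.19. The r between the shared and the main probe was 0.10. By group mean, the main probe was highest in medium infarct core, then secretome infarct core, medium border zone, secretome normal region, medium normal region and secretome border zone, and the single gap above the larger SD was that between both arms in the infarct core.

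TNF showed no called regional difference on its main probe. The infarct core ranged over 153.8 to 548.5 scaled intensity, the border zone over 147.0 to 499.3 and the normal region over 116.3 to 852.9, with medians of 304.2, 332.9 and 240.1. The 3 regions overlapped almost fully. Infarct core minus normal region was -0.07 ± 0.24 (SE; limma, adjusted p = 0.84), with a 95% interval of -0.57 to 0.44. The infarct core was higher than the normal region in 2 of 6 pigs and higher than the border zone in 4 of 9. No gap between neighbouring group means exceeded the larger SD.

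The main TNF probe separated the arrays by scan series. Its 12 arrays of the first series ranged over 304.2 to 852.9 scaled intensity and its 12 arrays of the second over 116.3 to 254.7. These did not overlap, and the mean difference, not adjusted for region or arm, was 1.25. That difference was larger than that of 85.2% of kept probes. How many of all probes separate the series without overlap was not counted, so the separation is not shown to be particular to TNF. The series hold different pigs, so series and pigs cannot be told apart here. Within the first series infarct core minus normal region was -0.61 (limma, adjusted p = 0.0217), and within the second 0.21 (limma, adjusted p = 0.564). The other TNF probe differed by 0.05 between series and had an r of 0.13 with the main probe. It ranged over 5.61 to 15.0 in the infarct core, 1.64 to 13.5 in the border zone and 3.89 to 9.16 in the normal region, where no array was well above background. Its infarct core mean was 1.13-fold the normal region limit, which is not a firm minimum, and the fitted difference of 0.56 ± 0.27 was not called (SE; limma, adjusted p = 0.0944). In the border zone it was well above background on 1 of 6 secretome arrays and 1 of 3 medium arrays.

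**Figure D2:**
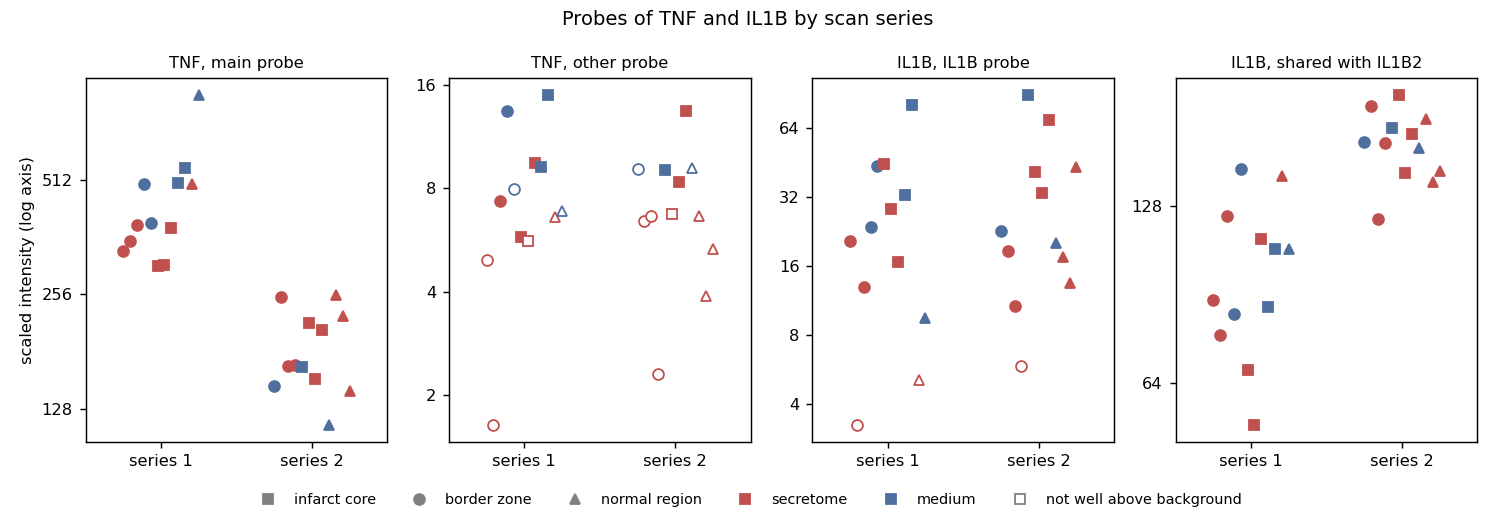
Scaled intensity on a log axis of both TNF probes and both IL1B probes on every array, by scan series. Shapes mark the region, colours the arm and open symbols arrays not well above background. The main TNF probe lies at 304.2 to 852.9 in series 1 and at 116.3 to 254.7 in series 2, while the other TNF probe overlaps between series.

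Infarct core against normal region, the comparison of scar with remote muscle, called 4 of the 5 genes higher and none lower by the main probe. This stands against a background in which 53% of all probes were called and 25.4% were called higher. In the comparison of infarct core with border zone the same 4 genes, CASP1, IL1B, IL18 and MYD88, were called higher, against a background of 46.7% called and 23% called higher. Each of these 4 was higher in the infarct core than in the normal region in 6 of 6 pigs, as were 19.2% of all probes, and higher than in the border zone in 9 of 9 pigs, as were 13.3%. Exact two-sided sign-flip tests over pigs gave p = 0.0312 and p = 0.00391 for each of the 4 genes, the smallest values that 6 and 9 pigs allow, unadjusted among 15 such tests. The median difference of the 5 genes was 1.63 for infarct core against normal region and 1.03 for infarct core against border zone, beside -0.08 and -0.03 over all 6050 named genes.

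Both arms showed the step between infarct core and normal region. In the secretome arm the difference was 1.51 ± 0.23 for CASP1, 1.28 ± 0.44 for IL1B, 2.87 ± 0.49 for IL18 and 1.15 ± 0.17 for MYD88, each called, with 41.3% of all probes called. In the medium arm the differences were 1.91 ± 0.32, 1.98 ± 0.63, 3.18 ± 0.69 and 1.65 ± 0.24 (SE), again each called, with a background of 35.7%. Between infarct core and border zone, the secretome arm called all 4 of these genes against a background of 40.1%, with CASP1 at 1.23 ± 0.20 and IL18 at 2.23 ± 0.42. The medium arm, with 3 pigs, called MYD88 alone at 1.06 ± 0.21 (limma, adjusted p = 0.0032) against a background of 23.3%. There CASP1 was at 0.54 ± 0.28, IL1B at 1.11 ± 0.54 and IL18 at 1.11 ± 0.59. The difference between arms in this step was 0.69 ± 0.34 for CASP1 (SE; 95% interval -0.03 to 1.40; limma, adjusted p = 0.841) and was called for none of the 5 genes, nor for any other probe (0% called, 5.46% at an unadjusted p under 0.05).

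**Figure D3:**
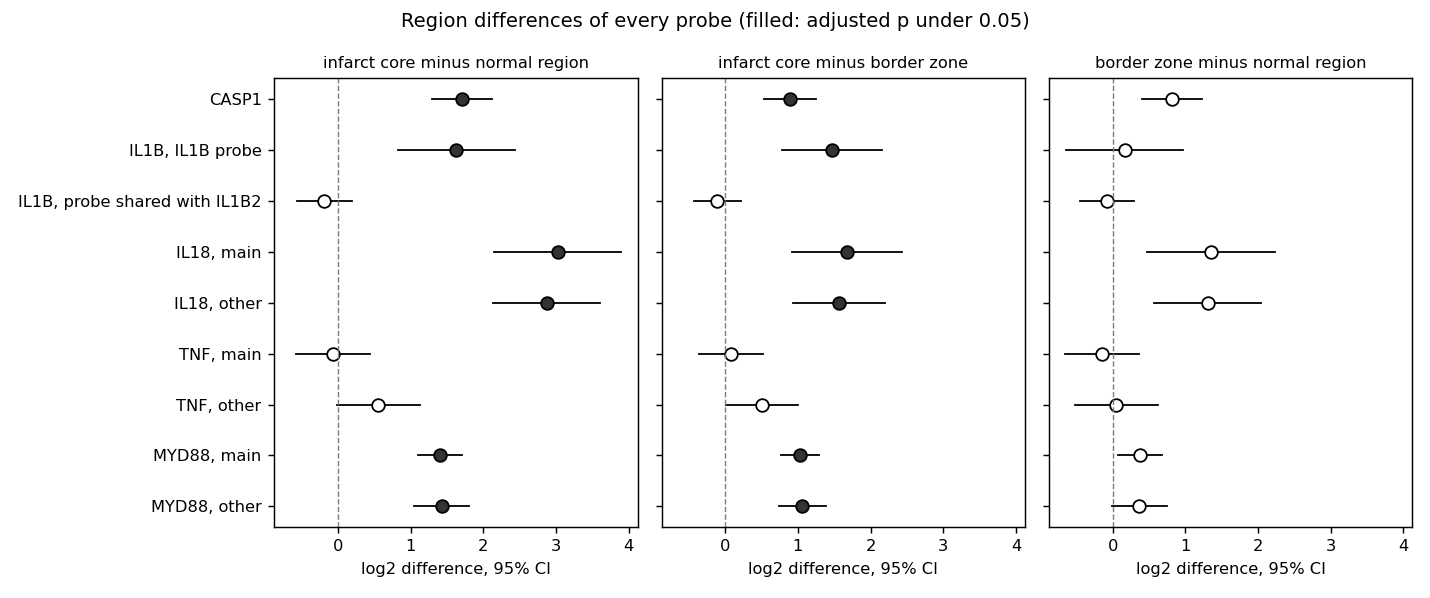
Log2 differences between regions with 95% confidence intervals for all 9 probes, with filled points called at an adjusted p under 0.05. Both IL18 and both MYD88 probes lie right of 0 in the first 2 panels, at 2.87 and 3.02 and at 1.40 and 1.43 against the normal region, while the shared IL1B probe lies at -0.18 and the main TNF probe at -0.07.

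In the border zone, where the injections were placed, 0 of the 5 genes were called against the normal region by limma, with 0.466% of all probes called and 14.3% at an unadjusted p under 0.05. CASP1 and IL18 had the largest estimates. CASP1 was 0.82 ± 0.20 higher (SE; limma, adjusted p = 0.0651) and IL18 1.35 ± 0.42 higher (limma, adjusted p = 0.14). The estimates were 0.37 ± 0.15 for MYD88, 0.16 ± 0.38 for IL1B and -0.14 ± 0.24 for TNF. For CASP1 and IL18 the estimates were larger in the medium arm than in the secretome arm: CASP1 differed by 0.28 ± 0.23 in the secretome arm and by 1.36 ± 0.32 in the medium arm, and IL18 by 0.64 ± 0.49 and 2.06 ± 0.69. The difference between arms in this step was not tested, and 0% and 0.166% of probes were called in the secretome and the medium arm.

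The comparison of arms asks whether the injected secretome went with other transcript levels than medium. By limma it called 0 of the 5 genes in each of infarct core, border zone and normal region, where 0.0146%, 0% and 0% of all probes were called and 4.9%, 7.2% and 1.73% had an unadjusted p under 0.05. The estimates of all 5 genes were below 0 in infarct core and border zone alike, and 4 of the 5 were below 0 in the normal region. With the normexp correction MYD88 in the infarct core was at 0.17, and with slide as a covariate TNF was at 0.10 in infarct core and 0.24 in border zone. Within the second scan series IL18 was at 0.077 and TNF at 0.20 in the infarct core, and TNF at 0.38 in the border zone. Without medium pig 18, TNF in the border zone was at 0.12. These estimates come from the same pigs and are not independent of each other.

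CASP1 gave the smallest p of the 5 genes. In the border zone it ranged over 142.7 to 305.0 scaled intensity with a median of 236.7 in the 6 secretome pigs, against 402.6, 538.2 and 1487 in the medium pigs 10, 18 and 40. All secretome arrays lay below all medium arrays. Secretome minus medium was -1.66 ± 0.36 (SE; 95% interval -2.42 to -0.91; limma, unadjusted p = 0.000155, adjusted p = 0.662), rank 7 of 34362 by p. In the infarct core CASP1 ranged over 370.4 to 661.8 with a median of 534.5 in secretome pigs, against 780.4, 816.2 and 1570 in the same order of medium pigs. Here too the arms did not overlap, and the difference was -0.98 ± 0.36 (SE; limma, unadjusted p = 0.0134, adjusted p = 0.974), rank 351. In the normal region the 4 secretome arrays of pigs 11, 14, 15 and 16 had 159.4, 171.5, 228.3 and 144.7, and the 2 medium arrays of pigs 10 and 18 had 228.3 and 201.5, with overlap. The fit put the difference there at -0.58 ± 0.41, where the plain difference of means was -0.31, since the fit also uses each pig's other regions.

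The size of the CASP1 difference rested in part on medium pig 40. Without it the difference fell to -1.11 in the border zone and -0.65 in the infarct core, and without medium pig 10 it was -2.05 (limma, adjusted p = 0.0613) and -1.16. Leaving out only the border array of pig 40, a choice made after seeing that it was the dimmest array, gave -1.30 in the border zone. The difference was below 0 within both scan series, at -1.69 in the border zone and -1.18 in the infarct core within the first and at -1.25 and -0.59 within the second, which holds 1 medium pig.

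IL18 in the border zone ranged over 38.5 to 405.1 scaled intensity with a median of 184.5 in secretome pigs, against 101.0, 726.3 and 1610 in medium pigs 10, 18 and 40. The arms overlapped through medium pig 10, and the difference was -1.73 ± 0.76 (SE; limma, adjusted p = 0.685). In the infarct core the secretome arrays ranged over 361.8 to 1112 with a median of 808.5 and the medium arrays had 478.6, 1220 and 2049, a difference of -0.62 ± 0.76. In both regions the medium pig of the second scan series was the lowest of the medium pigs.

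IL1B in the border zone had 3.24 to 20.5 scaled intensity with a median of 11.8 in secretome pigs, of which 4 of 6 were well above background, against 22.7, 23.8 and 43.9 in the medium pigs. The arms did not overlap on the main probe, and the difference was -1.52 ± 0.70 (SE; limma, adjusted p = 0.685). On the shared probe the same comparison gave -0.06 ± 0.33 with overlap. In the infarct core the main probe had 16.7 to 69.2 in secretome pigs, against 89.3, 32.8 and 80.9 in medium pigs.

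On the main probe, MYD88 in the border zone ranged over 2673 to 4451 scaled intensity in secretome pigs, against 4595, 4548 and 4590 in medium pigs. The highest secretome array lay just below the lowest medium array, and the difference of -0.35 ± 0.26 was not called (SE; limma, adjusted p = 0.726). On the same probe in the infarct core, secretome pigs had 6279 to 9298 and medium pigs 12201, 6403 and 11055, with overlap. The other MYD88 probe gave the reverse. Its arms overlapped in the border zone, with 22.9 to 48.0 in secretome pigs and 46.2 to 60.5 in medium pigs. In the infarct core they did not, with 51.0 to 85.2 and 85.6 to 142.1, where 1.46% of all probes were lower without overlap. On the main TNF probe the border zone of secretome pigs ranged over 166.6 to 388.9 with a median of 292.3, against 147.0, 499.3 and 393.2 in medium pigs, and the infarct core over 153.8 to 381.6 with a median of 259.8, against 165.0, 501.8 and 548.5. By its main probe TNF overlapped between arms in every region, with a border zone difference of -0.23 ± 0.44 (SE; limma, adjusted p = 0.887). The other TNF probe had 1.64 to 7.33 in secretome and 7.97 to 13.5 in medium border zones, without overlap. Its normal region levels of 3.89 to 6.66 and 6.85 to 9.16 were likewise apart, while its infarct core levels overlapped. Few border zone arrays and no normal region array had this dim probe well above background.

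In the normal region the arms overlapped for each of these 4 genes by the main probe. IL18 had 52.7, 61.3, 170.3 and 80.7 scaled intensity in secretome pigs 11, 14, 15 and 16, and 49.6 and 144.1 in medium pigs 10 and 18. IL1B had 17.5, 13.6, 43.3 and 5.08 in the secretome pigs, the last not well above background, and 20.2 and 9.52 in the medium pigs. For secretome pig 15, IL18 and IL1B were highest of the group, and for medium pigs the order of 10 and 18 was opposite for IL18 and IL1B. MYD88 had 3556, 3483, 3523 and 2622 in the secretome pigs, and 3765 and 2319 in the medium pigs. TNF had 254.7, 225.4, 142.8 and 499.1 in the secretome pigs, and 116.3 and 852.9 in the medium pigs. The fitted differences of secretome minus medium were -0.31 ± 0.87 for IL18, -0.11 ± 0.80 for IL1B, 0.09 ± 0.30 for MYD88 and -0.37 ± 0.51 for TNF (SE), none of them called.

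Counted over the main probes, the arms did not overlap for CASP1, IL1B and MYD88 in the border zone, where 1.11% of all probes were lower without overlap and 1.85% without overlap in either direction. In the infarct core this held for CASP1, against 1.46% lower and 1.88% in either direction. CASP1 was lower without overlap in both regions, as were 0.125% of all probes. An exact two-sided permutation of arms over 6 and 3 pigs gave p = 0.0238 for each of these 4 cases, the smallest value possible, unadjusted among 15 tests. In the normal region the smallest possible exact p is 0.133. These counts and tests used the main probes only, and the second probes differed. The other MYD88 probe overlapped in the border zone but not in the infarct core. The shared IL1B probe overlapped in the border zone, and the other TNF probe did not overlap there or in the normal region.

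**Figure D4:**
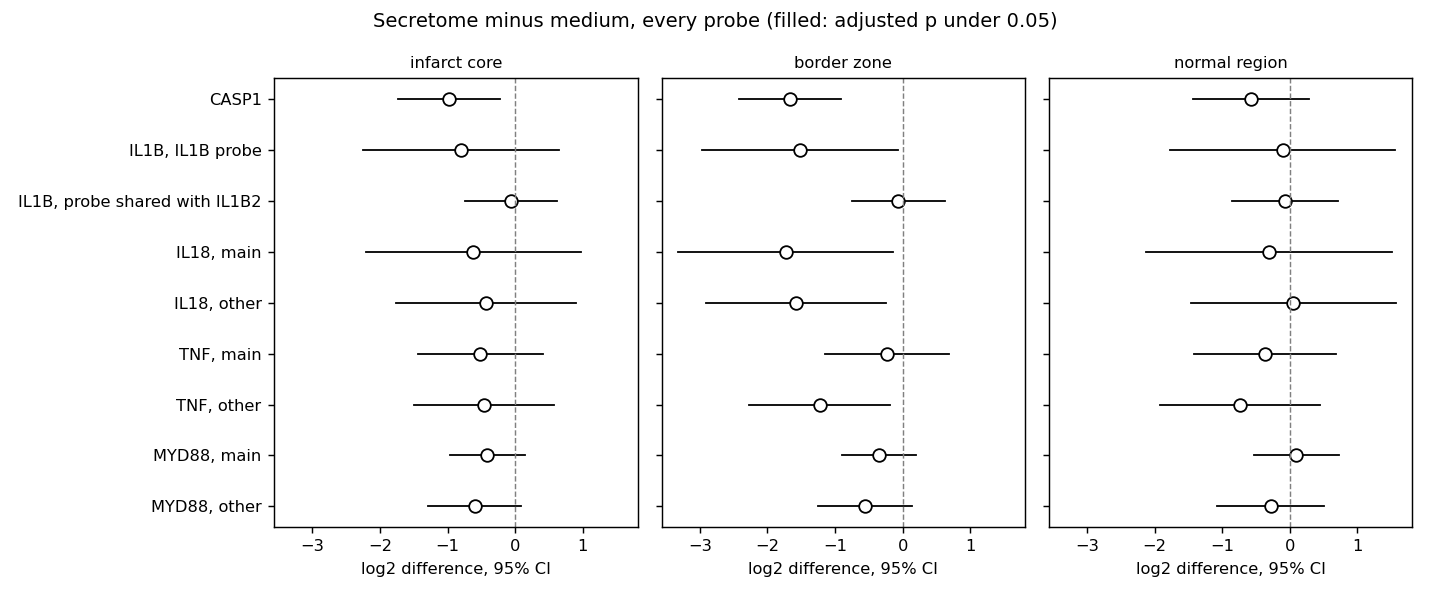
Log2 difference of secretome minus medium with 95% confidence intervals for all 9 probes in each region. Every point is open because no probe of the 5 genes passed an adjusted p of 0.05. CASP1 lies lowest relative to its interval, at -1.66 in the border zone and -0.98 in the infarct core.

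Markers of other cells moved with these genes between regions. In the infarct core against the normal region, all 7 measured macrophage markers of 11 listed, all 6 T and NK cell markers and all 4 measured fibroblast markers of 5 were called higher, and all 9 measured cardiomyocyte markers of 11 were called lower. Of 4 measured neutrophil markers, CXCR2 was called lower and the others were not called, and none of 3 endothelial markers was called. Over all probes, 25.4% were called higher and 27.6% lower in this comparison. The summed scaled intensity of the macrophage markers was 18627 to 64789 in the infarct core, 8583 to 44173 in the border zone and 10277 to 15681 in the normal region. All macrophage markers measured were well above background on all 24 arrays, so none was at 0 in any region. Across the 24 arrays the macrophage score, the mean log2 level of these markers, had an r of 0.92 with CASP1, 0.92 with MYD88, 0.88 with IL18, 0.75 with IL1B and 0.08 with TNF, a description over arrays that share regions, pigs and scan series. Macrophages were not alone in this. With CASP1, MYD88 and IL18 the fibroblast score had an r of 0.81, 0.88 and 0.88, and the T and NK cell score 0.83, 0.70 and 0.74. In the same order r was -0.72, -0.73 and -0.75 for cardiomyocytes, -0.72, -0.25 and -0.74 for endothelial cells and 0.32, 0.26 and 0.22 for neutrophils. The part of these cell types in the regional differences was not tested.

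The same markers differed in estimate between arms. Summed macrophage marker intensity in the border zone was 8583 to 22737 in secretome pigs and 17566 to 44173 in medium pigs, and in the infarct core 18627 to 47645 in secretome pigs and 45999 to 64789 in medium pigs. The ranges overlapped in both regions. None of the 7 macrophage and 6 T and NK cell markers was called between arms by limma in the border zone, where their median differences were -1.05 and -1.55. In the normal region the macrophage sums were 10456 to 14024 in secretome pigs and 10277 to 15681 in medium pigs. CD86, which antigen-presenting cells carry, was -1.07 ± 0.28 in the border zone (SE; limma, adjusted p = 0.662). What these cells contribute to the CASP1 difference between arms was not tested.

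The wider pathway was read from 6 gene lists with 54 measured genes, the 5 genes themselves left out. Between infarct core and normal region 30 were called higher, 5 lower and 19 not, with a median difference of 0.65, beside 1659 higher, 1871 lower and a median of -0.08 over the 6050 named genes. Between infarct core and border zone 35 were called higher and 3 lower, beside 1551 and 1600 of all named genes. In border zone against normal region and in secretome against medium in each region, limma called 0 of the 54. The normexp correction left 14 higher and 3 lower, with a median of 0.078, between infarct core and normal region and turned the sign of CSF2, IL18R1 and CXCL8.

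Of the inflammasome list 3 of 16 genes were measured. NLRP3, the sensor of the best studied inflammasome, rose by 1.08 ± 0.17 in the infarct core over the normal region (SE; limma, adjusted p = 3.07e-05). TXNIP, which binds NLRP3, was at -0.44 ± 0.19, and P2RX7, the ATP-gated channel upstream of NLRP3, at 0.34 ± 0.22, neither called. Of the IL-1 family 3 of 11 were measured. IL18R1, the receptor chain that binds IL-18, was called higher, at 1.15 ± 0.33 by the fit. Its infarct core mean was 1.26-fold the normal region limit, as 0 of 6 normal region arrays had it well above background. The estimates for IL1A, 0.23 ± 0.18, and for the receptor antagonist IL1RN, 0.09 ± 0.11, were not called.

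The Toll-like receptor and MYD88 list held 16 measured genes of 21, with 11 called higher and 3 lower in the infarct core against the normal region. LY96, the co-receptor of TLR4, rose by 2.44 ± 0.31, the RNA sensor TLR7 by 2.07 ± 0.26, TLR2 by 1.55 ± 0.20, TLR4 by 1.33 ± 0.19 and the kinase IRAK4, which MYD88 recruits, by 1.39 ± 0.17 (SE). Those that fell, named because they were few, lie downstream of MYD88: the kinase IRAK1 was at -0.76 ± 0.14, the ubiquitin ligase TRAF6 at -0.60 ± 0.16 and TAB1, a partner of the kinase TAK1, at -0.42 ± 0.14. Of 9 measured TNF pathway genes of 15, 7 were called higher and 0 lower. Among them were the TNF-induced gene TNFAIP6 at 1.78 ± 0.32, the death domain kinase RIPK1 at 0.81 ± 0.14, the TNF receptor TNFRSF1A at 0.74 ± 0.17, ADAM17, which sheds TNF from the cell surface, at 0.74 ± 0.21 and CASP8 at 0.65 ± 0.14.

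Of the NF-kB list 8 of 11 genes were measured, and 1 was called in each direction. The inhibitor NFKBIE rose by 1.18 ± 0.15 and the kinase IKBKB fell by 1.39 on the log2 scale, with an SE of 0.25. IKBKG at -0.44 ± 0.23, NFKB2 at 0.18 ± 0.13 and NFKBIA at -0.19 ± 0.18 were not called. All 15 genes of the list of early targets of NF-kB signalling were measured, with 9 called higher and 1 lower. IL6 rose by 2.52 ± 0.44, IL10 by 1.66 ± 0.26 and the adhesion molecule ICAM1 by 0.92 ± 0.17. The infarct core mean of CSF2 was 1.41-fold the normal region limit, with 0 of 6 normal region arrays well above background. SOD2, the mitochondrial superoxide dismutase, fell by 1.80 on the log2 scale (SE 0.25), against the direction of most of its list.

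**Figure D5:**
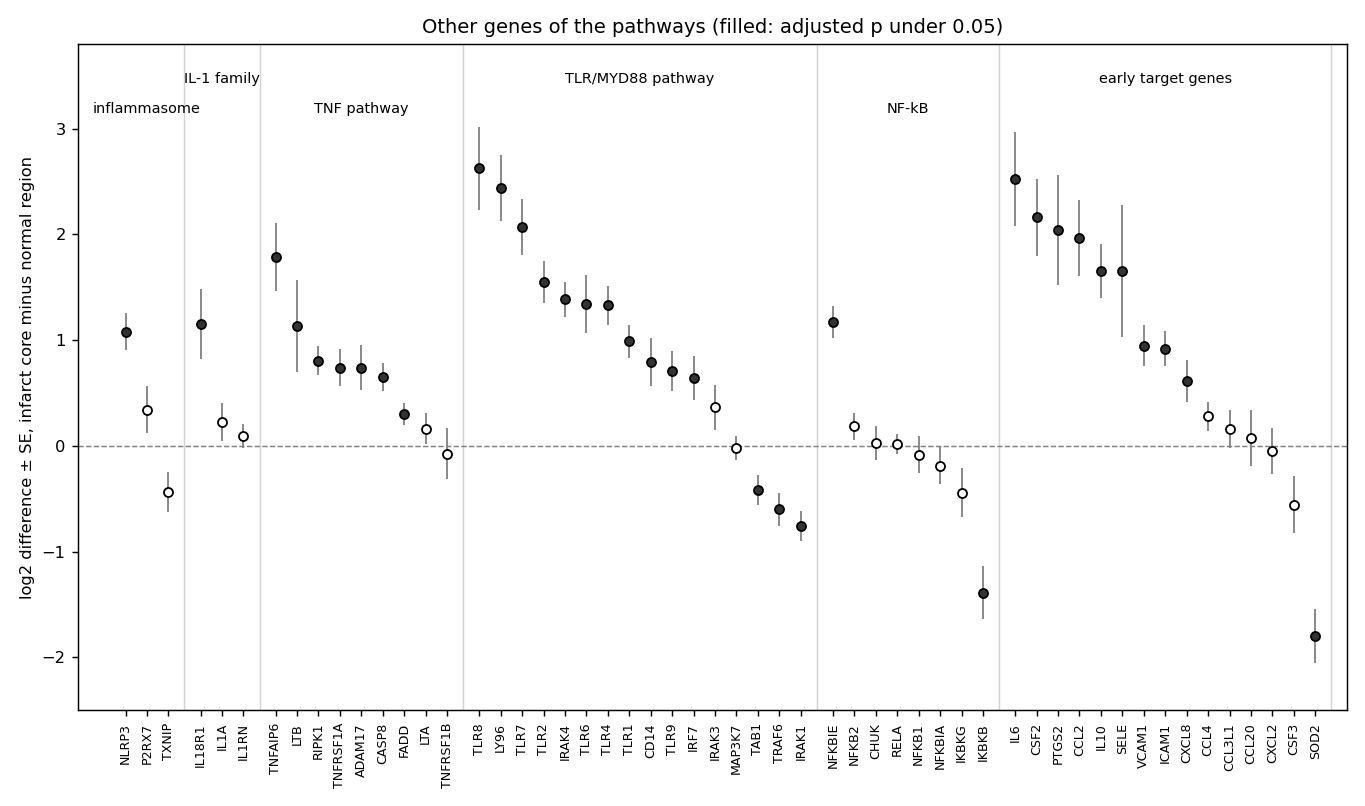
Log2 difference ± SE of infarct core minus normal region for the 54 measured pathway genes, grouped by list, with filled points called at an adjusted p under 0.05. Most called genes lie above 0, with LY96 at 2.44 and IL6 at 2.52. SOD2 at -1.80 and IKBKB at -1.39 are the lowest.

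Among the 5 genes, CASP1 and IL18 varied together most closely. Their r was 0.90 over the 24 arrays and 0.80 after the mean of each group was subtracted. The r of CASP1 with MYD88 was 0.79 and with IL1B 0.70, and 0.37 and 0.25 after subtraction. TNF had an r of 0.21 with CASP1, 0.37 with IL18, -0.17 with IL1B and -0.12 with MYD88. These are descriptions over arrays that share pigs, regions and scan series.

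The genes most like CASP1, MYD88, IL1B and TNF were taken for each as the 3 with the highest r over the 24 arrays among 6049 other named genes. For CASP1 they were EVI2A (0.96), KYNU (0.95) and AIF1 (0.95), and the same 3 came first after group means were subtracted. MYD88 was followed most closely by MYO5A (0.97), CYBA (0.97) and SFXN3 (0.96). The closest to IL1B was CDC42SE1 (0.86), which had an infarct core minus normal region difference of 0.14, with RAP2A and ORMDL2 (0.83 each) after it. TNF was followed by ZIC4, CAMK1G and TRIM31 (0.94 each), whose regional differences were -0.05, -0.17 and -0.14.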

How the data were processed

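Per the file headers, Agilent Feature Extraction 10.7.3.1 made the deposited intensity value of each spot, subtracting background and correcting spatial trends. The deposited series table holds log2 values of the same arrays, made by the authors with limma 3.14.4 per the submitters' processing notes. How it was normalised and filtered is not given in the sources used here. It lists 33348 probes, among them the main probe of 3 of the 5 genes, and the medians of its 24 columns are 7.684 to 7.692. Each column matched its own array best once probes were centred (r 0.728 to 0.825). Its scale was taken as log2, its direction is that of the scanner values, and its common offset stays unknown. It was used as an alternative.

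Outlier spots were dropped (1 to 27 on an array) and replicate spots averaged. The processed signal was divided by each array's 75th percentile and log2-transformed. A probe was kept if at least 3 arrays of 24 measured it well above background. Symbols came from accessions (7703 probes), gene IDs (1909) or names in the files (4250); 39 probes had several and 29702 none. Coordinates are those of the RefSeq table for Sscrofa11.1. A gene below background on all arrays of a region is compared with a limit: the bright region's mean against the higher of each array's lowest signal well above background and the probe's own. That lowest signal is taken over all probes of the array, so the ratio is approximate and not a firm minimum.

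Group means for region and arm were fitted with limma 3.58.1 (R 4.3.3, statmod 1.5.0, data.table version 1.17.8), with pig as a random block (correlation 0.548), both arms weighted equally in region comparisons, and Benjamini-Hochberg adjustment over all probes kept. The block correlation was 0.204 with scan series and 0.206 with slide as a covariate, and 0.223 and 0.148 within the first and second scan series. Thus the value of 0.548 also holds differences between scan series, which the main fit leaves out. Same-numbered samples come from the same pig. Their 21 pairs had a mean correlation of deviations of 0.583 (lowest 0.120), against 0.439 for different pigs of one scan series and -0.454 across series. P-values between arms measure mainly the spread between the 9 pigs, and those between regions mainly the spread of differences within pigs. For comparisons with the normal region, 6 pigs had both regions. The number of arrays limits the precision. Exact tests and figures used Python 3.11.15, numpy 2.4.6, pandas 2.3.3, scipy 1.17.1 and matplotlib 3.10.9. The fit was also run on simulated data with known changes. These data held a pig effect but no shift between scan series or slides, so the fit was not tested against such shifts.

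The genes, lists and tests were chosen with earlier results of these data known. Named genes are the 5 members, the up to 5 measured genes of each list with the smallest p between infarct core and normal region, any list gene called between arms or between border zone and normal region, and the 3 genes most like each member, which for IL18 are not reported here; others are named only where stated. Alternatives were other scalings and background corrections, the deposited log2 table, other filters, probe averages, blocks and covariates, each scan series alone and each pig left out.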

Additional observations from a re-analysis of the deposited data

Results flagged for a closer look

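In the normal region of secretome pigs, the MYD88 level of pig 16 stood apart from the other 3 arrays, at 2622 scaled intensity against 3483, 3523 and 3556. Its gap to the nearest array was 0.932 of the group's range. That exceeds the 95% critical value of the gap test for 4 arrays. Among 15 groups examined this was the 1 array that stood out, and chance flags about 5% of such groups.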

How the results depend on the processing

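Of 23 alternatives, 4 changed a count of the 5 genes called. With the normexp correction infarct core against either region called 3, since IL1B was no longer past the threshold (0.21 and 0.56). Of all 34362 probes, 6847 were then called against the normal region and 6147 against the border zone. The deposited table, which holds the main probes of 3 of the genes, called these 3 in both comparisons, with 13347 and 11477 of 26223 probes called. Within scan series 1, border zone against normal region called 1 (IL18 at 2.28), with 333 of 34362 probes called. Infarct core against border zone there called 2, with CASP1 at 0.59 and IL1B at 1.11 no longer past the threshold, and 10879 probes. Infarct core against normal region there called 5, with TNF lower (-0.61), and 14660 probes. Within scan series 2, infarct core against normal region called 3, without IL1B (1.61), and 9715 probes. Without a replicate block the counts were again 4, 4 and 0 between regions and 0 between arms, although the probes called between infarct core and border zone fell to 9223, against 16044 with it. Pig as a fixed replicate block left the counts of genes at 4, 4 and 0. Leaving out each pig changed no count, with ranges of 4 to 4 for infarct core against either region and 0 to 0 elsewhere.

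Turned directions concerned estimates that were not called. With the normexp correction these were secretome minus medium for IL18 (0.23), IL1B (0.39) and MYD88 (-0.080) in the normal region and MYD88 (0.17) in the infarct core, border zone minus normal region for IL1B (-0.35) and infarct core minus border zone for TNF (-0.0059). Without the replicate block they were IL1B between arms in the normal region (0.12), and TNF in border zone (0.0051) and infarct core (0.081) minus normal region. TNF in infarct core minus normal region also turned with the percentile over probes detected on all arrays (0.022), with the mean of its probes (0.25) and within scan series 2 (0.21). MYD88 between arms in the normal region turned with the mean of its probes (-0.10) and within scan series 2 (-0.10). IL18 there turned with scan series (0.15) or slide (0.077) as a covariate and within scan series 2 (0.72). With slide as a covariate TNF turned in infarct core minus border zone (-0.045) and between arms in the border zone (0.24), infarct core (0.10) and normal region (0.12). Within scan series 2 the others were IL18 (0.077) and TNF (0.20) between arms in the infarct core, TNF (0.38) in the border zone, TNF (0.79) and IL1B (0.10) in the normal region, and IL1B (-0.44) and TNF (0.13) in border zone minus normal region. The cause was not tested.

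Leaving out pigs in turn, secretome minus medium in the normal region ranged over -0.94 to 0.17 for IL18, -0.63 to 0.37 for IL1B, -0.19 to 0.35 for MYD88 and -1.60 to 0.68 for TNF, and in the border zone over -0.76 to 0.12 for TNF. Border zone minus normal region ranged over -0.11 to 0.50 for IL1B and -0.49 to 0.21 for TNF, and infarct core minus normal region over -0.40 to 0.33 for TNF.

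Over all probes the calls between infarct core and normal region were 18202, and 6847 with normexp and 9715 within scan series 2; between infarct core and border zone they were 6147 and 5665. Between border zone and normal region they were 160 and ranged over 0 to 333. Between arms they ranged over 0 to 38 in the infarct core, 0 to 8 in the border zone and 0 to 17 in the normal region. The normexp correction moved the median of all probes between arms in the infarct core to -0.43, against -0.04. Only 3 medium pigs, 2 normal region arrays of that arm and dim IL1B and TNF probes limit these comparisons.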
